A study of Sparus aurata with 9 samples.

Results

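The proteasome genes of gilthead sea bream (Sparus aurata) myoblasts were taken by symbol alone, and no measured value entered the pattern. The pattern took the psma, psmb, psmc, psmd, psme, psmf and psmg genes together with pomp, adrm1, sem1 and the nfe2l1 genes, and it found 58 of the 27159 genes in the table. They comprised 8 alpha and 5 beta genes of the core particle, 7 inducible or fish-specific beta genes, 11 genes of the base and 11 of the lid of the regulatory particle, 7 genes for activators and an inhibitor, 7 for assembly factors and 2 nfe2l1 genes. Of the 58, 55 had enough counts to be tested, and psma6a, PSMB11 and psmb11b did not. The pattern would also take the symbols psma7, psmb4, psmb6 and psmg4 but found no gene with them, so these subunits were not analysed under those names.

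The proteasome is the machine that degrades most of the short-lived and damaged proteins of a cell, and in muscle it does much of the breakdown of contractile proteins. Its core particle is a barrel in which rings of alpha subunits form the gates and rings of beta subunits hold the peptidase sites. The regulatory particle caps the barrel: its base carries the ATPases that unfold proteins, and its lid removes the ubiquitin chain that marks them. Interferon replaces the catalytic beta subunits of mammals by inducible ones, other activators can take the place of the regulatory particle, and NFE2L1 is the transcription factor that in mammals raises subunit genes when proteasome activity is short.

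Primary myoblasts isolated from fast-twitch muscle were grown to day 8, when fusion begins, so that each library mixes dividing and fusing cells. All cells first spent 12 h in a balanced salt medium with glucose and vitamins but no amino acids. For another 24 h, AA cells received DMEM, a culture medium that differs from the salt medium by more than its amino acids, Igf-1 cells received sea bream insulin-like growth factor 1 with an albumin carrier in the medium free of amino acids, and CTR cells stayed in that medium, 36 h in all. RNA was sequenced in 3 libraries per group from 3 independent cultures, without a statement of which library came from which culture, so p-values measure the spread between these libraries. No library was taken at the start of the 24 h. Below, a gene that rose or fell with AA was higher or lower than in CTR. A change in CTR cells over those 24 h cannot be told apart from one in AA cells.

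The estimated counts of a library summed to between 48725967 and 67887824. A normalized count below is the count scaled to library size and composition (TMM), and FPKM is the level per transcript length. Of the marker symbols looked for, those with a gene in the table are counted here. The 11 muscle markers found, myod1 and myog among them, were detected in all 9 libraries. They summed to 7039 to 8520 FPKM in AA, 4700 to 5111 FPKM in Igf-1 and 2980 to 3645 FPKM in CTR libraries. In AA against CTR all 11 log2 fold changes were above 0, with a median of 0.46 and a highest value of 3.82. In AA against Igf-1, 7 were above 0 and 4 below, with a median of 0.17, so this sum does not stand for the list. Of 8 leukocyte markers, 7 were detected in all libraries (92.4 to 130.2 FPKM in AA, 76.8 to 118.7 in Igf-1, 54.9 to 82.6 in CTR) and mpx was at or near 0. The 8 endothelium markers summed to 14.0 to 18.5 FPKM in AA, 19.9 to 24.9 in Igf-1 and 37.3 to 50.7 in CTR. Most of that sum in CTR was 1 gene, plvapb, with a mean of 3.19 FPKM in AA, 8.79 in Igf-1 and 37.0 in CTR. Of the 8 log2 fold changes in AA against CTR, 6 were above 0 and 2 below, so the sum does not stand for the list. Of 9 pigment cell markers, 6 were detected in all libraries, with tyrp1a at 0 in most. The 9 summed to 5.69 to 7.90 FPKM in AA, 10.5 to 13.2 in Igf-1 and 15.6 to 15.9 in CTR. The part of these cells in the results was not tested, and in bulk RNA fewer cells of a type and less RNA per cell cannot be told apart.

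The libraries of a group were not alike for these genes. CTR replicate 3 lay above its group mean in 49 of the 55 members tested, by a median of 0.43 on the log2 scale, and was the highest CTR library in 49. AA replicate 2 lay above its group mean by a median of 0.32, and AA replicate 3 was below it, with a median of −0.37, and was the lowest AA library in 48 members. The 85 ribosomal protein genes (their median was 0.56 in CTR replicate 3 and that in AA replicate 3 was −0.59) and the 113 genes of oxidative phosphorylation tested (0.50 and −0.53) moved the same way in those libraries. Over all genes tested, CTR replicate 3 had a median of 0.00 and AA replicate 3 one of 0.01, which the TMM scaling in large part sets. CTR replicate 3 had the lowest TMM factor of all libraries (0.791) and AA replicate 3 the highest (1.21). A low factor raises every normalized count of a library and a high one lowers it. On FPKM, which these factors do not scale, CTR replicate 3 was the highest CTR library in 40 members. AA replicate 3 was the lowest AA library in 40. The part of the scaling in the deviations was not tested. Counts of calls are also given without each of these libraries.

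**Figure D1:**
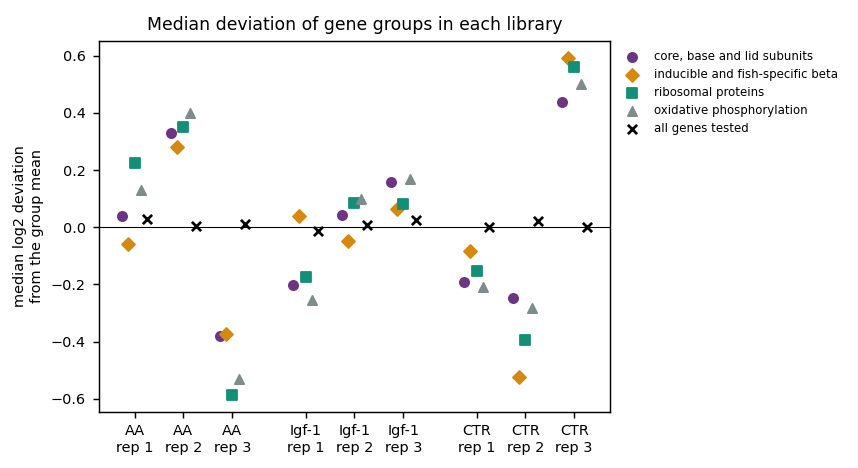
Median log2 deviation from the group mean (vertical axis) of gene groups in each of the 9 libraries (horizontal axis), from normalized counts. In CTR replicate 3 the core, base and lid subunits (0.44), ribosomal proteins (0.56) and oxidative phosphorylation genes (0.50) all lie above 0. In AA replicate 3 they lie at −0.38, −0.59 and −0.53. The median of all genes tested stays near 0, which the TMM scaling in large part sets.

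As a share of all FPKM in a library, the libraries of a group lay closer together. The 58 genes made up 0.920, 0.977 and 0.932% of the summed FPKM in the AA libraries, 0.520, 0.541 and 0.558% in the Igf-1 libraries and 0.497, 0.512 and 0.520% in the CTR libraries. No AA library was near either other group, and the lowest Igf-1 library met the highest CTR library. The mean share was 1.85 times as large in AA as in CTR (0.943 ± 0.030% and 0.510 ± 0.012%, SD, n = 3 each) and 1.06 times as large in Igf-1 (0.539 ± 0.019%) as in CTR. By role, the ratio of the mean share in AA to that in CTR was 2.06 for the alpha and 1.99 for the beta subunits of the core, 1.83 for the base, 1.90 for the lid, 1.62 for the inducible and fish-specific beta subunits, 1.56 for the assembly factors and 1.30 for the activators and the inhibitor. These ratios are descriptions, with no test over the members.

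The subunits of the core and the regulatory particle were among the more abundant transcripts. Their median level over the 9 libraries was 106.9 FPKM, against 3.24 FPKM for the 17687 genes tested, and 33 of the 35 exceeded 20 FPKM, which 16.7% of the genes tested did. Within the core, psmb1 (ENSSAUG00010004197), a structural beta subunit, was the highest at 361 ± 41.1 FPKM in AA, 205 ± 11.9 in Igf-1 and 199 ± 19.9 in CTR, and psma3 (ENSSAUG00010025465) led the alpha subunits at 312 ± 40.1 FPKM in AA, 193 ± 19.3 in Igf-1 and 181 ± 28.5 in CTR. The lowest beta subunit was psmb2 (ENSSAUG00010008400), with 199 ± 40.0 FPKM in AA, 94.3 ± 5.26 in Igf-1 and 91.7 ± 17.0 in CTR. In the lid, psmd3 (ENSSAUG00010015928), a scaffold subunit, was the highest with 222 ± 39.2 FPKM in AA, 153 ± 15.9 in Igf-1 and 153 ± 19.8 in CTR and psmd11a was the lowest with 32.8 ± 2.99 FPKM in AA, 17.2 ± 1.04 in Igf-1 and 18.7 ± 0.615 in CTR. In the base, psmc3 (ENSSAUG00010004152), an ATPase, had 137 ± 61.7 FPKM in AA, 118 ± 11.8 in Igf-1 and 122 ± 13.9 in CTR, and psmd4a (ENSSAUG00010012828), a copy of the ubiquitin receptor psmd4, had 8.83 ± 4.15 FPKM in AA, 5.45 ± 1.12 in Igf-1 and 5.54 ± 0.997 in CTR.

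Levels of the other members ranged from those of core subunits down to almost none. Among the activators, psme1 (ENSSAUG00010011610) had 154 ± 30.2 FPKM in AA, 138 ± 15.4 in Igf-1 and 125 ± 20.5 in CTR, whereas psme4b had 0.300 ± 0.0316 FPKM in AA, 0.438 ± 0.0196 in Igf-1 and 0.591 ± 0.101 in CTR. The chaperone pomp (ENSSAUG00010008220), which matures the core, had 162 ± 15.0 FPKM in AA, 120.2 ± 8.17 in Igf-1 and 108 ± 10.5 in CTR, and psmd5, the lowest assembly factor, had 14.5 ± 1.97 FPKM in AA, 7.54 ± 0.447 in Igf-1 and 7.32 ± 1.15 in CTR. The inducible and fish-specific beta genes had a median of 9.48 FPKM, and psmb10 alone among the 7 exceeded 20 FPKM. The alpha gene psma6a (ENSSAUG00010021478) had 0.0418 ± 0.0725 FPKM in AA, 0.113 ± 0.150 in Igf-1 and 0.0804 ± 0.0788 in CTR, PSMB11 (ENSSAUG00010018769), whose mammalian counterpart is specific to the thymus, had 8 counts in AA replicate 1 and 0 in the other 8 libraries, and psmb11b (ENSSAUG00010015241) had 0 counts in all 9. The alpha 6 subunit is also annotated outside the pattern: a gene without a symbol (ENSSAUG00010011210), described as a copy of that subunit, had 116 ± 18.4 FPKM in AA, 65.9 ± 2.17 in Igf-1 and 63.0 ± 14.5 in CTR, and psma6l (ENSSAUG00010006771) had 35.4 ± 4.30 FPKM in AA, 33.2 ± 2.18 in Igf-1 and 26.7 ± 2.57 in CTR. Neither passed between AA and CTR (log2 fold change 0.74 ± 0.29, edgeR adjusted p = 0.119 and log2 fold change 0.27 ± 0.20, edgeR adjusted p = 0.436).

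**Figure D2:**
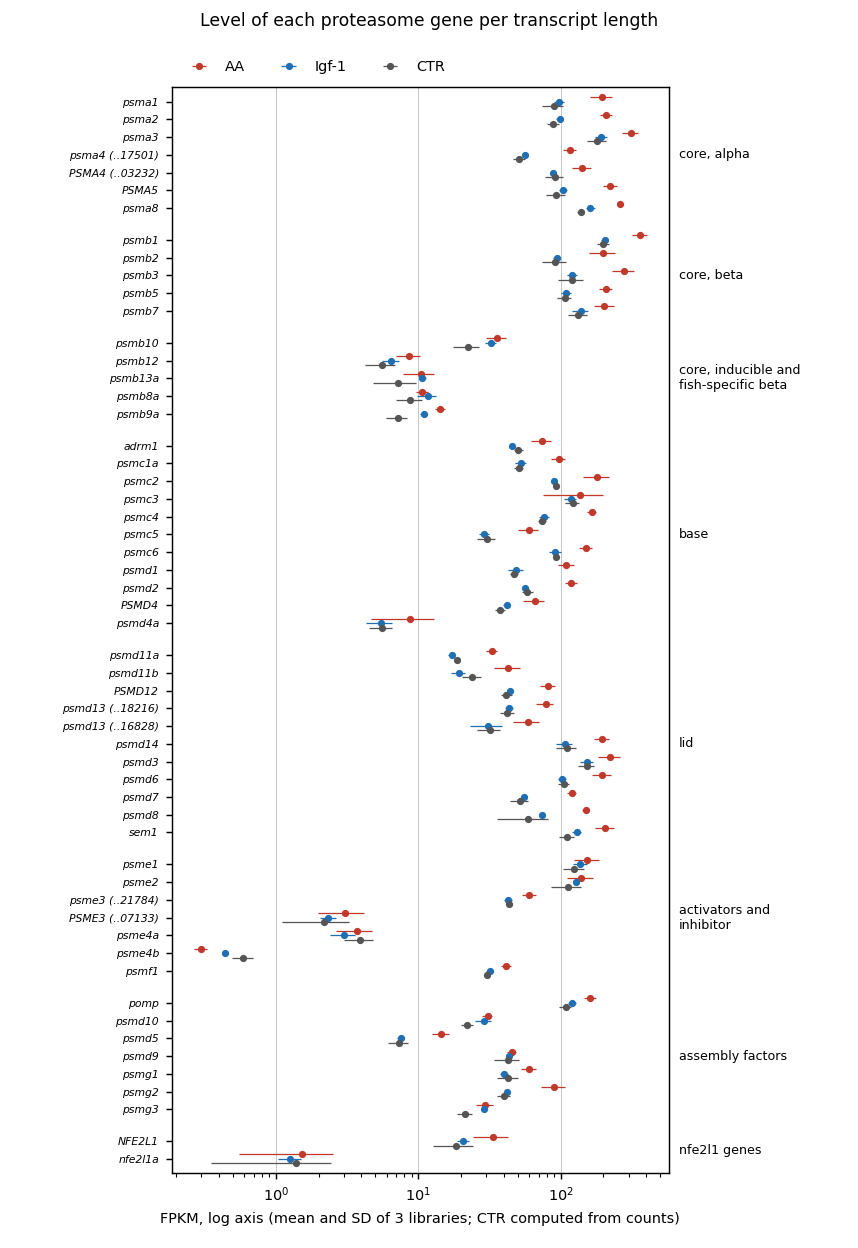
Level of the 55 members tested, as mean FPKM with its SD over 3 libraries (horizontal log axis), in AA, Igf-1 and CTR, grouped by role down the page. Core, base and lid genes lie mostly between 20 and 400 FPKM with AA to the right of the other groups, and psme4b, at 0.300 FPKM in AA and 0.591 FPKM in CTR, lies to the far left with the order of the groups turned round.

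In the AA group, genes of all parts of the core and the regulatory particle were higher than in CTR. Of the 55 members tested, 22 were higher in AA than in CTR and 1, psme4b, was lower at an adjusted p of at most 0.05 (edgeR quasi-likelihood test), where 7.46% of the genes tested were higher and 7.74% lower. The members' median log2 fold change was 0.70, against −0.01 for the genes tested, and 52 of the 55 values were above 0. Of these, 10 were higher and psme4b was lower by a log2 fold change of 1 or more, against 4.83% higher and 3.79% lower of the genes tested. In 18 members the AA libraries all lay above the CTR libraries, which 14.6% of the genes tested did. The core, base and lid gave 18 of the 22, with a median of 0.79 over their 34 tested genes, and the other 21 members gave 4 higher and 1 lower, with a median of 0.37.

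The number of calls depended on single libraries, while most signs held. In fits without 1 library, 10 members were higher without CTR replicate 1, 10 without CTR replicate 2, 35 without CTR replicate 3, 13 without AA replicate 1, 12 without AA replicate 2, 30 without AA replicate 3 and 14 without Igf-1 replicate 2, which shares in the estimate of the spread. Between 49 and 52 of the 55 log2 fold changes stayed above 0 in those fits. Without CTR replicate 3 and AA replicate 2 together, 33 members were higher. In all 9 fits that left out 1 library, 10 members were higher, namely psma2, psma4, psmc4, psmd1, psmd2, psmd7, psmd8, psmd11b, PSMD12 and NFE2L1.

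**Figure D3:**
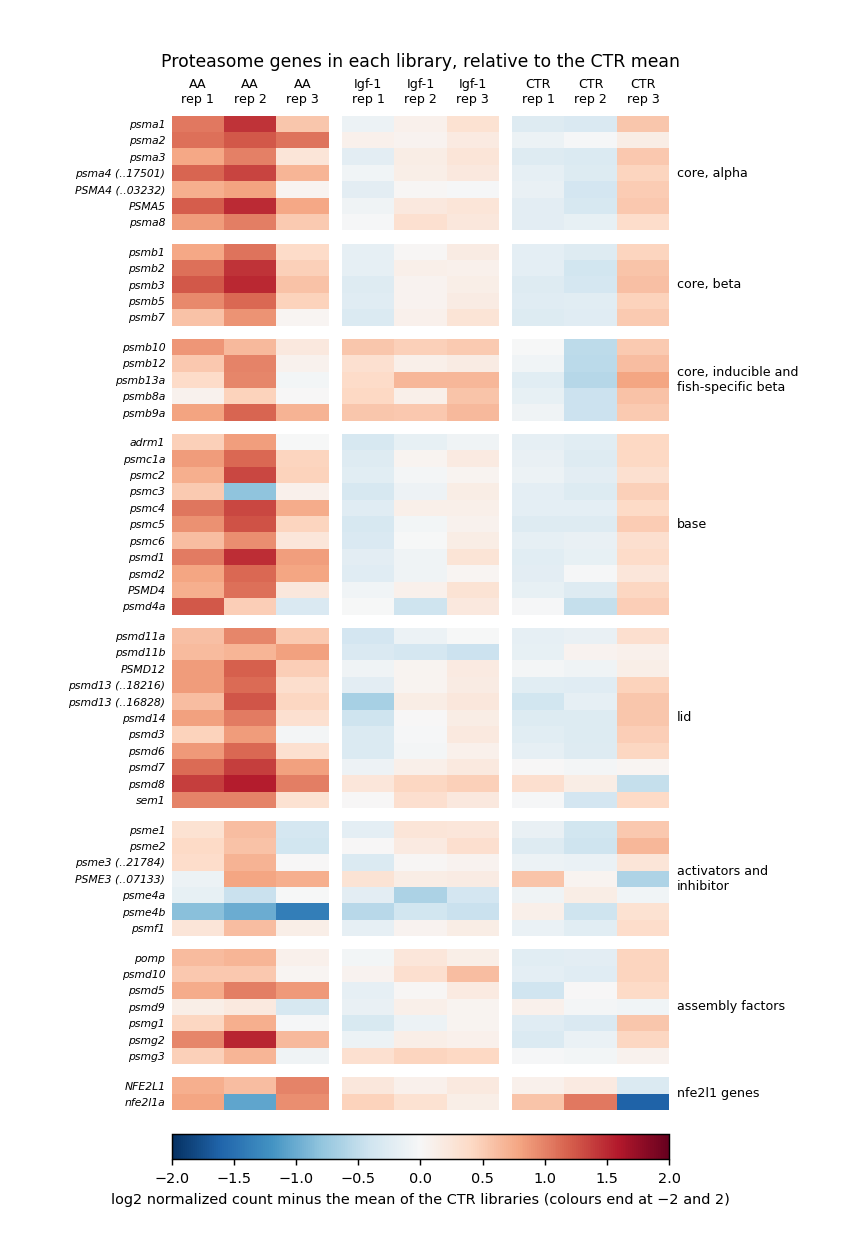
Log2 normalized count of the 55 members tested minus the mean of the CTR libraries (colour), per library (columns) and gene (rows, grouped by role; the last digits of the identifier tell apart genes of 1 symbol). Red fills most of the core, base and lid in the 3 AA columns, most deeply in AA replicate 2, and CTR replicate 3 is also reddish, while psme4b is blue in all AA libraries and psmc3 is blue in AA replicate 2 alone of the AA libraries.

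Of the alpha subunits, which form the gated outer rings, 5 of 7 tested rose with AA, with a median log2 fold change of 1.01. psma2 (ENSSAUG00010014669) had normalized counts of 12160, 13373 and 11984 in AA, 6062, 5987 and 6400 in Igf-1 and 5211, 5568 and 6288 in CTR libraries. Its AA libraries lay far above the others, which overlapped each other, and it had the smallest adjusted p of all members (log2 fold change 1.14 ± 0.13, edgeR adjusted p = 0.00044). PSMA5 (ENSSAUG00010011510) had normalized counts of 16586, 20181 and 12339 in AA, 6766, 8321 and 8549 in Igf-1 and 6227, 5707 and 10433 in CTR libraries, and psma4 (ENSSAUG00010017501) had normalized counts of 6637, 7576 and 4785 in AA, 2844, 3259 and 3447 in Igf-1 and 2630, 2471 and 4047 in CTR libraries. Both had every AA library above every CTR library (log2 fold change 1.13 ± 0.26, edgeR adjusted p = 0.0139 for PSMA5 and log2 fold change 1.05 ± 0.23, edgeR adjusted p = 0.011 for psma4). The copy PSMA4 (ENSSAUG00010003232) had normalized counts of 9064, 9649 and 5685 in AA, 4745, 5616 and 5387 in Igf-1 and 4972, 4269 and 7829 in CTR libraries, so that CTR replicate 3 lay within the AA libraries (log2 fold change 0.52 ± 0.25, edgeR adjusted p = 0.218). Reads of the copies that share a symbol may be split between them by the counting.

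psma8 (ENSSAUG00010025737), in mammals the testis form of psma7, had normalized counts of 21572, 24368 and 17161 in AA, 11847, 14977 and 14047 in Igf-1 and 10415, 10687 and 15503 in CTR libraries. It was the second most abundant alpha gene here and its AA and CTR libraries did not overlap (log2 fold change 0.79 ± 0.20, edgeR adjusted p = 0.0253), though it did not pass without CTR replicate 1, CTR replicate 2, AA replicate 1 or AA replicate 2. psma1 (ENSSAUG00010025303) had normalized counts of 15434, 20369 and 10924 in AA, 6892, 7996 and 9250 in Igf-1 and 6249, 6050 and 10980 in CTR libraries. Its CTR replicate 3 lay just above AA replicate 3 (log2 fold change 1.01 ± 0.28, edgeR adjusted p = 0.0355). psma3, the alpha gene of highest level, had normalized counts of 20802, 24315 and 14455 in AA, 10426, 13381 and 14434 in Igf-1 and 10170, 9949 and 17625 in CTR libraries and did not pass (log2 fold change 0.66 ± 0.27, edgeR adjusted p = 0.133).

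Of the 5 constitutive beta subunits, 3 rose with AA, with a median of 0.84. psmb3 (ENSSAUG00010001256), a structural beta subunit, had normalized counts of 11370, 13561 and 7217 in AA, 3985, 5057 and 5228 in Igf-1 and 4022, 3754 and 7281 in CTR libraries. The 2 highest AA libraries lay well above all others, and AA replicate 3 lay just below CTR replicate 3 (log2 fold change 1.09 ± 0.29, edgeR adjusted p = 0.0298). psmb2 had normalized counts of 10730, 13514 and 6896 in AA, 4386, 5378 and 5356 in Igf-1 and 4363, 3811 and 7411 in CTR libraries (log2 fold change 1.00 ± 0.29, edgeR adjusted p = 0.0413). psmb5 (ENSSAUG00010018758), which carries the chymotrypsin-like peptidase site, had normalized counts of 12290, 14017 and 8652 in AA, 5353, 6624 and 7057 in Igf-1 and 5342, 5412 and 8719 in CTR libraries (log2 fold change 0.84 ± 0.24, edgeR adjusted p = 0.0387). In both genes the order was the same, with CTR replicate 3 above AA replicate 3. psmb7 (ENSSAUG00010021443), which carries the trypsin-like site, had normalized counts of 20691, 25643 and 14264 in AA, 11296, 14845 and 16648 in Igf-1 and 11383, 11668 and 19888 in CTR libraries (log2 fold change 0.50 ± 0.28, edgeR adjusted p = 0.28), and psmb1 had normalized counts of 19338, 24021 and 14754 in AA, 9962, 11463 and 12749 in Igf-1 and 9931, 9482 and 15467 in CTR libraries (log2 fold change 0.74 ± 0.23, edgeR adjusted p = 0.0608). Neither passed. None of the 3 beta calls held in all fits that left out 1 library.

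In the base, 5 of 11 genes rose, with a median of 0.81. psmd2 (ENSSAUG00010020121), on which shuttle proteins and usp14 dock, and psmd1 (ENSSAUG00010027595), which holds the receptor adrm1, had the smallest adjusted p of the base. psmd2 had normalized counts of 25106, 31955 and 25035 in AA, 12207, 13638 and 14893 in Igf-1 and 12459, 14229 and 17123 in CTR libraries, and psmd1 had normalized counts of 22169, 30163 and 19372 in AA, 9396, 10233 and 13047 in Igf-1 and 9299, 9683 and 14130 in CTR libraries. AA was above all other libraries in both (log2 fold change 0.91 ± 0.17, edgeR adjusted p = 0.00602 for psmd2 and log2 fold change 1.11 ± 0.23, edgeR adjusted p = 0.00873 for psmd1). Of the ATPases, psmc4 (ENSSAUG00010023618) had normalized counts of 15067, 18128 and 12063 in AA, 6126, 7783 and 7858 in Igf-1 and 6316, 6272 and 9477 in CTR libraries (log2 fold change 1.04 ± 0.22, edgeR adjusted p = 0.00926). psmc2 (ENSSAUG00010024694) had normalized counts of 15561, 23698 and 12872 in AA, 8011, 9139 and 9718 in Igf-1 and 8654, 8138 and 11748 in CTR libraries (log2 fold change 0.87 ± 0.23, edgeR adjusted p = 0.0309), and psmc1a (ENSSAUG00010011143) had normalized counts of 15452, 19044 and 11674 in AA, 7202, 8927 and 9730 in Igf-1 and 7705, 7216 and 11380 in CTR libraries (log2 fold change 0.81 ± 0.23, edgeR adjusted p = 0.0392). Their AA libraries lay above their CTR libraries without overlap, in psmc1a by a narrow margin between AA replicate 3 and CTR replicate 3. psmc5 (ENSSAUG00010006373) lay just outside the threshold (log2 fold change 0.87 ± 0.26, edgeR adjusted p = 0.0504), with normalized counts of 13743, 17643 and 9960 in AA, 5817, 7029 and 7787 in Igf-1 and 6107, 6151 and 10435 in CTR libraries.

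The remaining ATPases and receptors did not pass. psmc6 (ENSSAUG00010002779) gave log2 fold change 0.60 ± 0.22, edgeR adjusted p = 0.0926, the ubiquitin receptors PSMD4 (ENSSAUG00010018503), adrm1 (ENSSAUG00010027295) and psmd4a gave adjusted p of 0.0866, 0.253 and 0.365, and psmc3 stood apart. psmc3 had normalized counts of 16685, 6639 and 12447 in AA, 9240, 10865 and 12814 in Igf-1 and 10140, 9582 and 16076 in CTR libraries. AA replicate 2, the highest AA library for 47 of the 55 members, was the lowest of all 9 for this ATPase, and the other AA libraries lay within or just above the range of CTR (log2 fold change 0.00 ± 0.32, edgeR adjusted p = 0.999). Without AA replicate 2 the log2 fold change was 0.29, which did not pass either. In the RefSeq annotation of assembly fSpaAur1.1, psmc3 is the direct neighbour of psmb1, which was highest in AA replicate 2.

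In the lid, 5 of 11 genes rose, with a median of 0.76. psmd8 (ENSSAUG00010021649), in yeast the last subunit to join the lid, had normalized counts of 12593, 14345 and 9842 in AA, 5671, 6455 and 6688 in Igf-1 and 6062, 5321 and 3462 in CTR libraries. It had the highest log2 fold change of all members (log2 fold change 1.31 ± 0.22, edgeR adjusted p = 0.00307) and, unlike most, was lowest in CTR replicate 3. psmd7 (ENSSAUG00010023937), the inactive partner of the lid's deubiquitinase, had normalized counts of 9832, 11633 and 7849 in AA, 4154, 4865 and 5118 in Igf-1 and 4486, 4330 and 4590 in CTR libraries. Its CTR libraries were nearly level, and AA lay above them throughout (log2 fold change 1.13 ± 0.17, edgeR adjusted p = 0.00148). psmd11b (ENSSAUG00010021008), which in yeast braces the lid against the core, had normalized counts of 3881, 3986 and 4434 in AA, 2021, 1955 and 1864 in Igf-1 and 2218, 2628 and 2675 in CTR libraries. Its AA libraries were highest and its Igf-1 libraries lowest, with CTR between them (log2 fold change 0.71 ± 0.13, edgeR adjusted p = 0.00545). PSMD12 (ENSSAUG00010006905), a scaffold subunit, had normalized counts of 11697, 14816 and 9063 in AA, 6066, 6722 and 7312 in Igf-1 and 6251, 6071 and 7067 in CTR libraries (log2 fold change 0.88 ± 0.18, edgeR adjusted p = 0.00995), and psmd11a (ENSSAUG00010026051) had normalized counts of 2679, 3485 and 2529 in AA, 1368, 1621 and 1760 in Igf-1 and 1561, 1584 and 2218 in CTR libraries (log2 fold change 0.70 ± 0.19, edgeR adjusted p = 0.0349). Both were above CTR in every AA library.

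The lid genes that did not pass had positive values. psmd14 (ENSSAUG00010021992), the deubiquitinase, gave log2 fold change 0.70 ± 0.27, edgeR adjusted p = 0.116, psmd6 (ENSSAUG00010006993) gave log2 fold change 0.78 ± 0.25, edgeR adjusted p = 0.0574 and sem1 (ENSSAUG00010013413) gave log2 fold change 0.76 ± 0.24, edgeR adjusted p = 0.0555. The 2 genes named psmd13 (ENSSAUG00010018216 and ENSSAUG00010016828) had log2 fold changes of 0.78 and 0.76, with adjusted p of 0.0575 and 0.15. psmd3, the lid gene of highest level, had normalized counts of 27600, 36021 and 19480 in AA, 16384, 19689 and 22980 in Igf-1 and 17062, 16643 and 28220 in CTR libraries, with CTR replicate 3 above AA replicate 1 (log2 fold change 0.42 ± 0.27, edgeR adjusted p = 0.356).

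**Figure D4:**
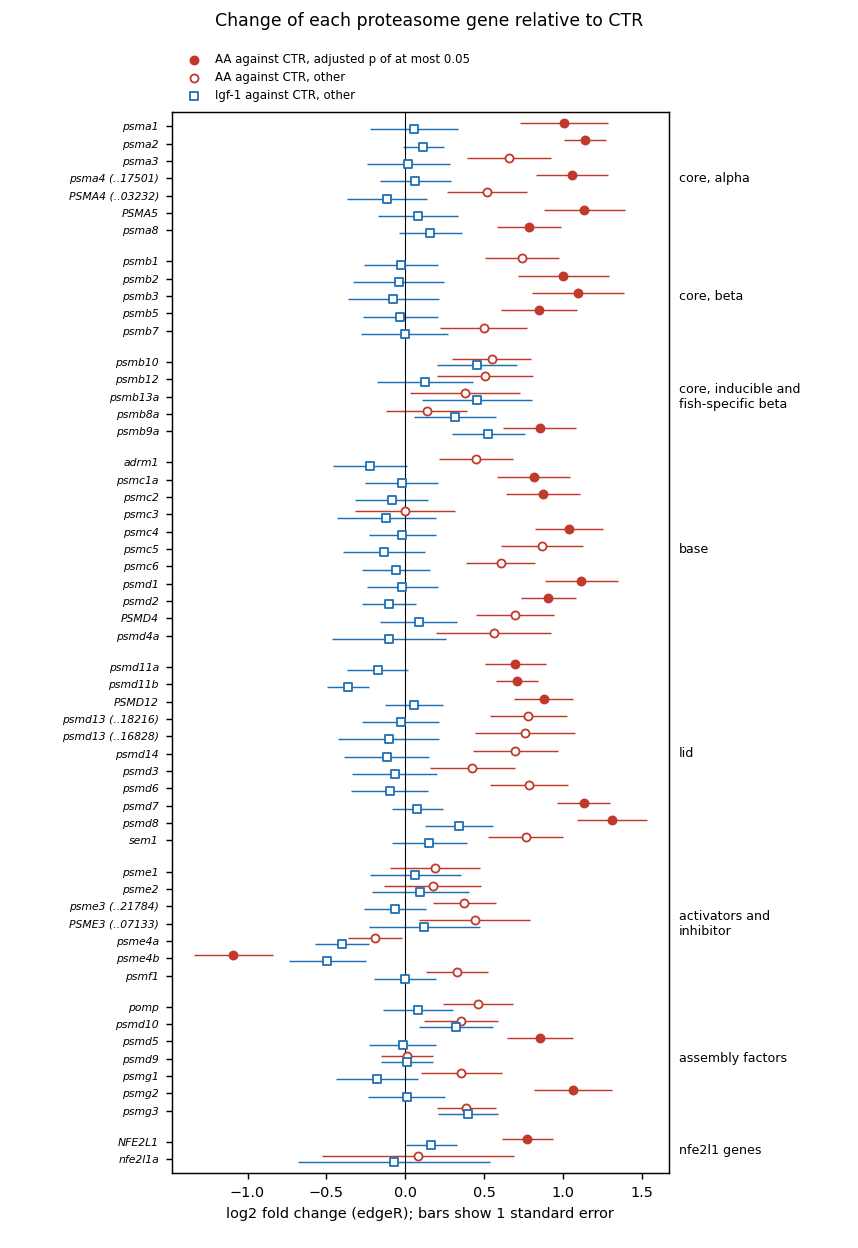
Log2 fold change of each of the 55 members tested (rows, grouped by role) in AA against CTR and in Igf-1 against CTR, with 1 standard error; filled points have an adjusted p up to 0.05. In AA, 22 points are filled to the right of 0 and psme4b to the left, and no Igf-1 point is filled.

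Of the activators and the inhibitor, none of 7 rose and 1 fell, with a median of 0.19. None was higher at an unadjusted p under 0.05 or with DESeq2 either, while psme3 and psmf1 were higher with limma on log2(FPKM + 1). At that unadjusted p, 2411 of the 17687 genes tested were higher. psme4b (ENSSAUG00010026507), a copy of the single-chain activator known as PA200 in mammals, had normalized counts of 258, 232 and 177 in AA, 313, 354 and 338 in Igf-1 and 501, 346 and 570 in CTR libraries. Every AA library lay below every Igf-1 and CTR library, and the gene was the one member that fell (log2 fold change −1.09 ± 0.25, edgeR adjusted p = 0.0144), at a level of under 1 FPKM. It was lower in all 9 fits that left out 1 library, but did not pass when the AA and CTR libraries alone were fitted (edgeR adjusted p = 0.0536). Its copy psme4a (ENSSAUG00010023586) had normalized counts of 1614, 1331 and 1802 in AA, 1553, 1163 and 1392 in Igf-1 and 1705, 2006 and 1717 in CTR libraries (log2 fold change −0.19 ± 0.17, edgeR adjusted p = 0.53), with the AA and CTR libraries overlapping.

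The ring activator psme1 had normalized counts of 19354, 24028 and 12398 in AA, 13773, 18803 and 18611 in Igf-1 and 14194, 12056 and 22761 in CTR libraries, and its partner psme2 (ENSSAUG00010024593) had normalized counts of 8812, 10065 and 5152 in AA, 6733, 7570 and 8448 in Igf-1 and 5601, 5053 and 10668 in CTR libraries. In both, CTR replicate 3 was near the top and AA replicate 3 near the bottom, and neither passed (log2 fold change 0.19 ± 0.29, edgeR adjusted p = 0.745 and log2 fold change 0.17 ± 0.31, edgeR adjusted p = 0.786). The transcript levels of the 2 genes were near 1 to 1. The FPKM of psme1 was 105, 114 and 115% of that of psme2 in AA libraries. It was 97.9, 119 and 105% in Igf-1 and 121, 114 and 102% in CTR libraries. psme3 (ENSSAUG00010021784), the nuclear ring activator, gave log2 fold change 0.37 ± 0.20, edgeR adjusted p = 0.257, its copy PSME3 (ENSSAUG00010007133) gave log2 fold change 0.44 ± 0.35, edgeR adjusted p = 0.482, and psmf1 (ENSSAUG00010015466), the inhibitor, gave log2 fold change 0.33 ± 0.20, edgeR adjusted p = 0.327.

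Of 7 assembly factors, 2 rose with AA, with a median of 0.39. psmg2 (ENSSAUG00010001825), a chaperone that with psmg1 builds the alpha ring, had normalized counts of 5736, 8340 and 4558 in AA, 2668, 3185 and 3133 in Igf-1 and 2384, 2648 and 3900 in CTR libraries (log2 fold change 1.06 ± 0.25, edgeR adjusted p = 0.0158). Its partner psmg1 (ENSSAUG00010002764) had normalized counts of 3849, 4698 and 2800 in AA, 2281, 2611 and 2945 in Igf-1 and 2395, 2303 and 4174 in CTR libraries and did not pass (log2 fold change 0.36 ± 0.26, edgeR adjusted p = 0.428). psmd5, a chaperone of the base (ENSSAUG00010014769), had normalized counts of 1527, 1858 and 1665 in AA, 802, 929 and 1030 in Igf-1 and 690, 910 and 1198 in CTR libraries (log2 fold change 0.85 ± 0.21, edgeR adjusted p = 0.0208), with each AA library above the others. The other chaperones of the base, psmd9 (ENSSAUG00010012274; log2 fold change 0.01 ± 0.17, edgeR adjusted p = 0.982) and psmd10 (ENSSAUG00010026934; log2 fold change 0.36 ± 0.23, edgeR adjusted p = 0.375), and psmg3 (ENSSAUG00010002914; log2 fold change 0.39 ± 0.19, edgeR adjusted p = 0.215) and pomp (log2 fold change 0.46 ± 0.22, edgeR adjusted p = 0.206) did not pass.

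NFE2L1 (ENSSAUG00010016897) rose with AA. It had normalized counts of 9426, 8705 and 11294 in AA, 6641, 6121 and 6541 in Igf-1 and 6121, 6423 and 4672 in CTR libraries, so that AA replicate 3, the lowest AA library for most subunits, was the highest for NFE2L1, and CTR replicate 3 was the lowest (log2 fold change 0.77 ± 0.16, edgeR adjusted p = 0.00987). Within groups its deviations ran against those of the core, base and lid subunits (Pearson's r = −0.94 over 9 libraries, given as a description, since all points share library size and composition scaling). Those of nfe2l1a (−0.90), psme4a (−0.68) and PSME3 (−0.49), none of which passed in AA against CTR, also did. Of the core, base and lid genes, 25 of 34 reached 0.9 on this measure. Across the 9 libraries without that centring r was 0.59 for NFE2L1. Ribosomal protein and oxidative phosphorylation genes moved with the subunits in CTR replicate 3 and AA replicate 3. The same r was not computed over all genes tested, and a link between NFE2L1 and the subunits was not tested. The copy nfe2l1a (ENSSAUG00010003455) had normalized counts of 363, 101 and 401 in AA, 289, 261 and 230 in Igf-1 and 312, 437 and 68 in CTR libraries, with low values in AA replicate 2 and CTR replicate 3 (log2 fold change 0.08 ± 0.61, edgeR adjusted p = 0.959).

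Members followed the median of the core, base and lid subunits to different degrees. Over the 9 libraries, Pearson's r with that median, each gene left out of its own reference, had a median of 0.97 for alpha, 0.99 for beta, 0.97 for base and 0.93 for lid genes, and 28 of the 34 core, base and lid genes reached 0.9. It had a median of 0.89 for assembly factors, 0.62 for inducible and fish-specific beta genes and 0.58 for activators. The lowest were psme4b (−0.53), nfe2l1a (−0.38), psme4a (−0.18) and psmc3 (0.05). These values are descriptions over libraries that share their scaling and 3 conditions. The reference is made of core, base and lid genes, so the order of the roles is in part set by that choice. The same r was not computed over all genes tested, so a high value is not shown to be particular to these subunits.

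The inducible beta subunits have their own account, since they exchange with constitutive ones in mammals. Of the 5 tested with AA, psmb9a alone rose, and the median was 0.51. psmb9a (ENSSAUG00010020612), whose mammalian counterpart replaces psmb6, had normalized counts of 2171, 2786 and 2011 in AA, 1830, 1794 and 1937 in Igf-1 and 1171, 917 and 1776 in CTR libraries. The AA libraries and the Igf-1 libraries all lay above the CTR libraries, CTR replicate 3 just below the lowest Igf-1 library (log2 fold change 0.85 ± 0.23, edgeR adjusted p = 0.0322 for AA). This call held in 2 of 9 fits that left out 1 library, those without CTR replicate 3 and without AA replicate 3.

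psmb10 (ENSSAUG00010011974), the counterpart of psmb7, had normalized counts of 3247, 2771 and 2035 in AA, 2586, 2448 and 2519 in Igf-1 and 1759, 1226 and 2532 in CTR libraries. psmb8a (ENSSAUG00010020623), the counterpart of psmb5, had normalized counts of 1702, 2219 and 1617 in AA, 2142, 1748 and 2383 in Igf-1 and 1427, 1197 and 2423 in CTR libraries. CTR replicate 3 lay among the treated libraries in psmb10 and was the highest of all in psmb8a, and neither passed in AA (log2 fold change 0.55 ± 0.25, edgeR adjusted p = 0.19 and log2 fold change 0.13 ± 0.26, edgeR adjusted p = 0.802). The genes psmb12 (ENSSAUG00010020617) and psmb13a (ENSSAUG00010020621), beta genes known from fish, had normalized counts of 999, 1365 and 725 in AA, 854, 741 and 771 in Igf-1 and 651, 472 and 1052 in CTR libraries and normalized counts of 1618, 2459 and 1200 in AA, 1615, 1971 and 1972 in Igf-1 and 1069, 835 and 2158 in CTR libraries. They did not pass (adjusted p = 0.323 and 0.549). In assembly fSpaAur1.1, psmb12, psmb13a and psmb8a are direct neighbours in a row.

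The inducible and fish-specific genes were also set against constitutive beta subunits within each library. The FPKM of psmb8a was 4.45, 5.08 and 6.0% of that of psmb5 in AA, 12.8, 8.47 and 10.8% in Igf-1 and 8.58, 7.11 and 8.93% in CTR libraries. Every AA library was below every other library, while Igf-1 and CTR overlapped. The denominator psmb5 itself rose with AA (log2 fold change 0.84 against CTR). How many of all genes tested fall in the same way over psmb5 was not computed. psmb10 stood at 20.5, 14.1 and 18.7% of psmb7 in AA, 30.0, 21.6 and 19.8% in Igf-1 and 20.2, 13.8 and 16.7% in CTR, and the groups overlapped.

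Over the geometric mean of the constitutive beta genes, a denominator common to all 5, psmb10 stood at 17.0, 12.0 and 15.6% in AA, 30.5, 23.3 and 22.5% in Igf-1 and 20.7, 15.1 and 17.7% in CTR libraries. psmb9a stood at 5.23, 5.53 and 7.08% of that mean in AA, 9.91, 7.84 and 7.95% in Igf-1 and 6.33, 5.18 and 5.69% in CTR. On this denominator each of the 5 genes was lower in every AA than in every Igf-1 library, as were 51.4% of all genes tested. The denominator is made of the 5 genes of which 3 rose with AA. psmb9a, psmb10 and psmb13a were higher in every Igf-1 than in every CTR library (6.14% of the genes tested), and psmb8a was lower in every AA than in every CTR library (37.7%). The psmb10 groups thus overlapped over psmb7 but not, for Igf-1, over the mean. These ratios do not depend on library size, and with 3 libraries against 3 an exact permutation test could give no p below 0.10, so none was run.

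**Figure D5:**
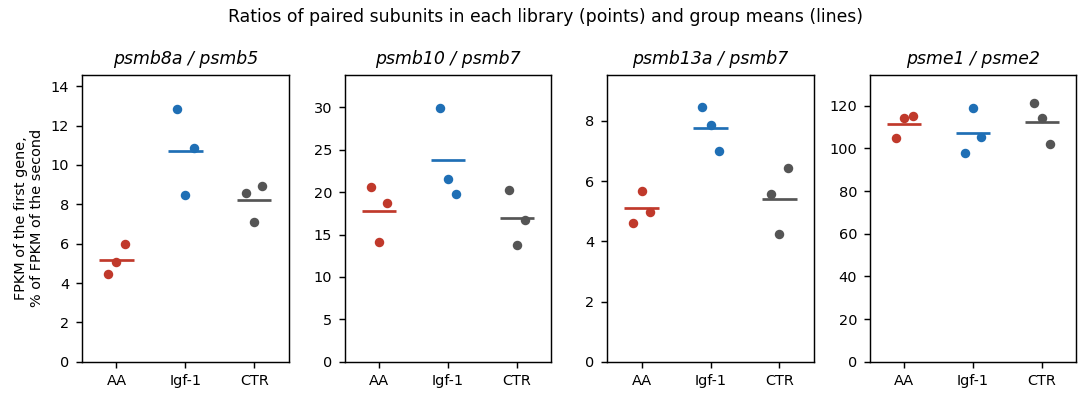
FPKM of 1 gene as a percentage of another in each of the 9 libraries (points) with group means (lines), for psmb8a over psmb5, psmb10 over psmb7, psmb13a over psmb7 and psme1 over psme2. The psmb8a ratio is lower in AA (mean 5.18%) than in Igf-1 (10.7%) and CTR (8.20%) libraries, and its denominator psmb5 itself rose with AA. The psmb13a ratio is higher in Igf-1 (7.78%) than in AA (5.09%) and CTR (5.41%), and the psme1 ratio lies near 100% in all groups. Ratios to these single genes were not computed over all genes tested.

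The interferon and antigen presentation genes and leukocyte markers were looked at beside the inducible subunits. Of 16 interferon and antigen presentation genes tested, 1 was higher and 1 lower in AA than in CTR, a share of 6.25% each way beside 7.46% higher and 7.74% lower of the genes tested. Mx1 (ENSSAUG00010006718), an antiviral GTPase, gave log2 fold change 1.67 ± 0.41, edgeR adjusted p = 0.0199, and stat1b (ENSSAUG00010009144), a copy of the transcription factor that interferon activates, gave log2 fold change −0.65 ± 0.18, edgeR adjusted p = 0.0351. Of 7 leukocyte markers tested, 2 were higher and 1 was lower in AA: coro1a (ENSSAUG00010024334) with log2 fold change 1.62 ± 0.30, edgeR adjusted p = 0.0049, lcp1 (ENSSAUG00010002263) with log2 fold change 0.77 ± 0.22, edgeR adjusted p = 0.0405 and csf1ra (ENSSAUG00010016701) with log2 fold change −0.79 ± 0.23, edgeR adjusted p = 0.0464. ptprc (ENSSAUG00010022706), which marks all leukocytes, had normalized counts of 1734, 1241 and 1167 in AA, 2190, 1468 and 1534 in Igf-1 and 1682, 1166 and 625 in CTR libraries and did not pass (adjusted p = 0.688). Of the calls above, coro1a held in all 9 fits that left out 1 library, Mx1 in 5, lcp1 in 3, stat1b in 2 and csf1ra in 1. Mx1 had a mean of only 0.264 FPKM in AA and 0.0737 in CTR. The part of leukocytes in the inducible subunits' values was not tested.

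Igf-1 gave no call among the 55 members. No member passed in Igf-1 against CTR in the edgeR test, where 0.147% of the genes tested were higher and 0.136% lower, and none passed with DESeq2 or with limma on FPKM. At an unadjusted p under 0.05, 3 members differed, against 9.11% of the genes tested: psmb9a was higher (log2 fold change 0.53 ± 0.23, edgeR adjusted p = 0.53) and psmd11b (log2 fold change −0.36 ± 0.13, edgeR adjusted p = 0.395) and psme4a (log2 fold change −0.40 ± 0.17, edgeR adjusted p = 0.51) were lower. The median log2 fold change of the members was −0.02, and 25 of 55 values were above 0. Both comparisons with CTR use the same CTR libraries.

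Single libraries moved the median in Igf-1, with no member passing. It was 0.20 without CTR replicate 3, with 49 of 55 values above 0, and −0.11 without CTR replicate 2, with 14 above 0. Without CTR replicate 3 and AA replicate 2 together, psmb9a passed and was the one member that did. The log2 fold changes of the alpha, beta, base and lid genes lay between −0.36 and 0.34. The inducible and fish-specific beta genes had a median of 0.45 with all 5 values above 0, and the activators one of 0.00. psmg3 and psmb9a were higher in every Igf-1 library than in every CTR library, and psmd11b and psme4a were lower in every one, where 9.35% of the genes tested lay above and 7.88% below without overlap.

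AA and Igf-1 were also compared with each other. In this comparison 17 members were higher in AA than in Igf-1 and 0 lower (edgeR), where 4.30% of the genes tested were higher and 4.07% lower. At an unadjusted p under 0.05, 33 were higher and 1, psme4b, was lower, where 21.4% of the genes tested differed in either direction, and DESeq2 and limma on FPKM gave 0 lower. The median of the members was 0.66, against −0.03 for the genes tested. By role, 3 of 7 alpha, 1 of 5 beta, 5 of 11 base, 5 of 11 lid, 2 of 7 assembly and 1 of 2 nfe2l1 genes were higher, and no activator or inducible beta gene passed. The AA libraries lay above the Igf-1 libraries in 32 members, where 13.6% of the genes tested did.

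The calls of AA against Igf-1 had psmd11b first (log2 fold change 1.07 ± 0.13, edgeR adjusted p = 0.00159), followed by psma2 (log2 fold change 1.02 ± 0.13, edgeR adjusted p = 0.00172), psmd7 (log2 fold change 1.05 ± 0.17, edgeR adjusted p = 0.00426) and psmd2 (log2 fold change 1.01 ± 0.17, edgeR adjusted p = 0.00687). These 4 passed in all 9 fits without 1 library. psmc5, which fell just outside the threshold against CTR, was higher than in Igf-1 (log2 fold change 1.00 ± 0.26, edgeR adjusted p = 0.0424). Left-out libraries moved the 17 calls: CTR replicate 3 to 27, AA replicate 1 to 7, AA replicate 2 to 6, AA replicate 3 to 23, Igf-1 replicate 1 to 4, Igf-1 replicate 2 to 4 and Igf-1 replicate 3 to 5. DESeq2 called 29.

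Genes that bring proteins to the proteasome rose in part with AA. Of 35 genes of ubiquitin transfer, shuttling and deubiquitination that were tested, 7 were higher in AA than in CTR and none lower, against 7.46% higher and 7.74% lower of the genes tested, with a median of 0.30. At an unadjusted p under 0.05, 15 of the 35 were higher and 2 lower, where 28.2% of the genes tested differed in either direction. usp14 (ENSSAUG00010022472), the deubiquitinase that sits on the base, had normalized counts of 6462, 7460 and 7097 in AA, 2604, 3072 and 2669 in Igf-1 and 2534, 2806 and 3218 in CTR libraries. Its AA libraries lay above all others by a wide gap (log2 fold change 1.30 ± 0.14, edgeR adjusted p = 0.00038). UBE2N (ENSSAUG00010006068), a ubiquitin-conjugating enzyme, had log2 fold change 0.83 ± 0.13, edgeR adjusted p = 0.00232 and UBA6 (ENSSAUG00010004997), a ubiquitin-activating enzyme, had log2 fold change 0.71 ± 0.16, edgeR adjusted p = 0.0122. uchl5 (ENSSAUG00010012408), a deubiquitinase bound to adrm1, gave log2 fold change 0.70 ± 0.18, edgeR adjusted p = 0.0254.

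The other 3 were ecpas (ENSSAUG00010024842), a scaffold that binds the proteasome, with log2 fold change 0.64 ± 0.17, edgeR adjusted p = 0.0323, vcp (ENSSAUG00010012786), the segregase that extracts ubiquitinated proteins, with log2 fold change 0.70 ± 0.20, edgeR adjusted p = 0.0404, and ube2d3 (ENSSAUG00010017230), a conjugating enzyme, with log2 fold change 0.43 ± 0.12, edgeR adjusted p = 0.0404. In AA against Igf-1, 9 of the 35 were higher and none lower, against 4.30% higher and 4.07% lower of the genes tested. At an unadjusted p under 0.05, 17 were higher and 1 lower, where 21.4% of the genes tested differed in either direction. The 9 were usp14 (log2 fold change 1.33 ± 0.15, edgeR adjusted p = 0.000821), UBE2N, vcp, ube2d3, txnl1, UBA6, nploc4, ube4b and uba1, with log2 fold changes of 0.46 to 1.33. In Igf-1 against CTR none of the 35 passed in edgeR, and none had an unadjusted p under 0.05, which 9.11% of the genes tested had. The 85 ribosomal protein genes gave 1 higher and 0 lower in AA than in CTR with a median of −0.30. The 113 genes of oxidative phosphorylation gave 0 higher and 5 lower with a median of −0.07, against 7.46% higher and 7.74% lower of the genes tested. At an unadjusted p under 0.05, 1 gene of oxidative phosphorylation was higher and 7 were lower. For ribosomal protein genes 2 were higher and 2 lower, where 28.2% of the genes tested differed in either direction.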

How the data were processed

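Poly(A) RNA of myoblasts was sequenced in 9 stranded paired-end libraries; how strand was used in counting is not stated. Per the labels and methods, the authors mapped reads with HISAT2 and estimated expression with StringTie on the species' Ensembl genome, whose build is not given in the sources used here. The deposited table holds an estimated count per gene, here rounded to whole numbers and used where plain counts had been planned. The value 4 occurred 5737 times in it, 3 occurred 1364 times and 5 occurred 938 times. The cause of this excess at 4 was not tested. The authors deposited FPKM for AA and Igf-1 for all genes. CTR FPKM were computed from the counts through the length that counts and FPKM imply. They were checked where the count was at least 100 and a CTR FPKM was deposited, in 4139 values of 1564 genes. These differed from the deposited CTR FPKM by a median of 0.155% and at most 3.19%. Values at lower counts were not checked. The authors' columns of fold changes, p-values and q-values were not used.

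Genes were filtered with filterByExpr, scaled with TMM (factors 0.791 to 1.21) and fitted with group as the only term over all 9 libraries by the quasi-likelihood test of edgeR 4.0.16 (R 4.3.3; common dispersion 0.115), tested on simulated data. The Benjamini-Hochberg adjustment ran over 17687 genes; ± beside a log2 fold change is its standard error, beside FPKM the SD over 3 libraries. limma 3.58.1 and DESeq2 1.42.0 were alternatives. Members were matched to RefSeq genes of fSpaAur1.1 (44 by gene ID, 11 by symbol, 3 unmatched). Coordinates served only to order genes along each chromosome, from which neighbours were named. The members, roles and lists, and the rule to name every member that passed, the extremes of each role and the catalytic subunits, were chosen with earlier results of these data known.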

Additional observations from a re-analysis of the deposited data

How the results depend on the processing

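In AA against CTR, the 22 members higher became 11 when only the compared groups were fitted (which left psme4b uncalled, 0 lower), 40 with limma on log2(FPKM + 1), and 10 to 35 when 1 library was left out. All genes passing numbered 2688 with all libraries, 1663 in the fit of the compared groups and 1744 to 2689 when 1 library was left out. In AA against Igf-1, the 17 members became 29 with DESeq2, 26 with limma on log2(FPKM + 0.1), filtered or not, 35 with log2(FPKM + 1), 26 without CTR replicate 3 and AA replicate 2 together and 4 to 27 when 1 library was left out; all genes passing numbered 1480, 2440 with DESeq2, 2536 without those libraries and 558 to 1987 without 1 library. In Igf-1 against CTR, 1 member passed without CTR replicate 3 and AA replicate 2 together, and all genes passing numbered 50, 496 with DESeq2, 76 with no filter, 21 in the fit of the compared groups, 80 with counts divided by 4, 114 with limma on log2(FPKM + 1), 33 with limma on log2(FPKM + 0.1) and no filter, 173 without both libraries and 1 to 71 without 1 library. The cause was not tested.

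Deviations of libraries with the same replicate number correlated at −0.30 to 0.17 over 9 pairs, and those with different numbers at −0.23 to 0.32 over 18. The ranges overlap, so they cannot tell whether a replicate number marks 1 culture, which is not stated. With the number as a replicate block, 13 members were higher in AA than in CTR and 1 lower, 8 were higher in AA than in Igf-1, and 1905, 0 and 802 genes passed in AA against CTR, Igf-1 against CTR and AA against Igf-1.

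Signs in AA against CTR turned for members near 0, none of which passed. psmc3 gave 0.0165 with RLE size factors and with DESeq2, 0.0550 with upper-quartile factors, 0.0478 with limma on log2(FPKM + 0.1), filtered or not, 0.0486 with log2(FPKM + 1), 0.57 without CTR replicate 3 and AA replicate 2 together, and −0.28 to 0.30 without 1 library. psmd9 gave −0.00056 with the replicate block, −0.11 without both libraries and −0.0899 to 0.16 without 1 library. Without 1 library psmb8a ranged over −0.0597 to 0.53, psme1 over −0.0417 to 0.54, psme2 over −0.0259 to 0.62 and nfe2l1a over −0.35 to 0.59. With 3 libraries a group, the spread between libraries enters each of these comparisons, and its part beside counting error was not separated.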
